A study of Mus musculus with 4 samples.

Results

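The genes described here are 9 transcription factors that pattern the early neural plate: Otx1, Otx2, Six3, Hesx1, En2, Gbx2, Zic1, Zic2 and Zic5. They were chosen by gene symbol, as every probe set of the array whose annotation names exactly 1 of these genes. That gave 11 probe sets for 9 of the 22180 genes with a value, and Gbx2 and Zic5 had 2 probe sets each. P19 is an embryonal carcinoma line of the mouse that resembles early embryonic cells, and retinoic acid makes it differentiate.

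There were 4 conditions with 1 Affymetrix array each. The Ctcfl line is a P19 clone that carries the stable integrates pBI-EGFP-FLAG-mCtcfl and pTA-N, and doxycycline had been withdrawn 2 days earlier so that its Tet-Off system expressed the Ctcfl transgene. The other cells are labelled wild type (WT) for the integrate. Each line was measured after 4 days in 10 µM retinoic acid and undifferentiated, in the ethanol vehicle. For WT cells the growth description gives ordinary medium with 10% serum. The sample labels, however, list 2 µg/ml doxycycline for all 4 arrays, also for those of the Ctcfl line, from which it had been withdrawn. The doxycycline label thus does not separate the lines. The line is 1 clone, so Ctcfl, the vectors, the clonal origin and any difference in doxycycline cannot be told apart in a comparison of the lines. With no replicate arrays, differences between 2 arrays have no replicate check and carry no test.

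All values are log2 signals, on which a difference of 1 is a 2-fold change. Array medians lay between 6.95 and 6.96, correlations between arrays between 0.961 and 0.985, and 18310 genes reached log2 6 on at least 1 array and were compared. Ctcfl itself had 9.56 in retinoic acid and 10.41 undifferentiated in the Ctcfl line, against 7.13 and 7.86 in the same states of WT cells. Of 8 markers of embryonal carcinoma cells, 8 were at log2 6 or above on each of the 4 arrays. In bulk RNA, fewer cells of a type and less RNA per cell cannot be told apart. Of 1105 olfactory receptor genes, 21.9% reached log2 6 on at least 1 array. As a guide to background, their 95th percentile lay between 6.82 and 6.95 on the arrays. Otx1, Otx2, Gbx2, Zic1, Zic2 and Zic5 were above it on 4 of 4 arrays and Six3 on 1, whereas Hesx1 and En2 were above it on 0. Of the embryonal carcinoma markers, Tdgf1 was below this guide in retinoic acid, at 6.76 in the Ctcfl line and 6.09 in WT cells. Dppa4 was below it in retinoic acid in the Ctcfl line, at 6.73.

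Regional identity in the neural plate is set in part by mutual exclusion between transcription factors. Otx2 holds the forebrain and midbrain, Gbx2 holds the anterior hindbrain, and the border where they meet becomes the midbrain-hindbrain organiser. Six3 and Hesx1 act at the front of the plate, the engrailed gene En2 acts around the organiser, and Zic genes act in the dorsal neural tube. Retinoic acid is a posteriorising signal that induces hindbrain and spinal cord genes, and Otx2 is also a factor of the epiblast, the tissue whose state P19 cells resemble.

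Promoter windows from RefSeq (GRCm38.p6, 250 bases before to 50 after an annotated start site, in the direction of the gene) were matched for 6 of the 9 genes and gave 9 windows, 4 of them for Otx2. The windows shown are the 2 of Otx2 and the 1 of Zic5 that held a searched motif, because these genes fell with retinoic acid, and that of their relative Zic1, which did not. Capitals mark motif matches on either strand.
Otx2, inner start (chr14:48665060-48665359, minus strand): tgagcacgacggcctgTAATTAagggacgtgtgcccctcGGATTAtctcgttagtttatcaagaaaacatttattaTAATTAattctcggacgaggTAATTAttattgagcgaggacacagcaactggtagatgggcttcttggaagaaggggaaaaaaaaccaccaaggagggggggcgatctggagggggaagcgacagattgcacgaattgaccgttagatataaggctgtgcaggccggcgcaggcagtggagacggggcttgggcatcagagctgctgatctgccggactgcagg
Otx2, outermost start (chr14:48667595-48667894, minus strand): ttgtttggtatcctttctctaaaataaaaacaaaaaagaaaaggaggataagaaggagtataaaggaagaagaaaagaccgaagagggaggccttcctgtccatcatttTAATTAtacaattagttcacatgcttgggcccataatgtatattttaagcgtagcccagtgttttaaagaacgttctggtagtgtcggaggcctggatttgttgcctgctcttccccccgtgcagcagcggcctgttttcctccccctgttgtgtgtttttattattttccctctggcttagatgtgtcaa
Zic5 (chr14:122465609-122465908, minus strand): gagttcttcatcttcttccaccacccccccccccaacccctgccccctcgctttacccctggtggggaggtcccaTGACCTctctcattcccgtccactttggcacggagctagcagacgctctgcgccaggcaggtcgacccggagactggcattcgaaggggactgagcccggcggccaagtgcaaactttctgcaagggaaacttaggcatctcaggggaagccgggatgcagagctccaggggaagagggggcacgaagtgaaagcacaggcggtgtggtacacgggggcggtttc
Zic1 (chr9:91365719-91366018, minus strand): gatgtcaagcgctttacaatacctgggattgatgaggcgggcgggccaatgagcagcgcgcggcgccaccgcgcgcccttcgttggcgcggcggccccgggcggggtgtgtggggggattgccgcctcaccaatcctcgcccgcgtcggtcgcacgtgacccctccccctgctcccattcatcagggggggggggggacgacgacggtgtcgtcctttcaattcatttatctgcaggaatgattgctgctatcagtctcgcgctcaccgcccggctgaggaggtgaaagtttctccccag

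The motifs searched, on both strands, were the retinoic acid receptor core AGGTCA, its direct repeats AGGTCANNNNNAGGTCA and AGGTCANNAGGTCA, the bicoid-type homeodomain motif TAATCC, the homeodomain pair TAATTA, the octamer ATGCAAAT, the TCF and LEF motif CTTTGAA, the Zic-type core CAGCAGG and the CTCF core CCANNAGNNGGC. The direct repeats contain the core, so a match to them is also a match to it. The inner Otx2 window held 3 copies of TAATTA, which 5.29% of all 32851 windows contain, and 1 of TAATCC, which 7.06% contain. The outermost Otx2 window held 1 TAATTA. Zic5 held 1 AGGTCA, on the strand opposite to the gene and starting at position -175 from the start site, a motif that 16.3% of windows contain. The direct repeats are in 3 windows of 32851 each, the octamer is in 1.74%, CTTTGAA in 5.14%, CAGCAGG in 10.5% and the CTCF core in 2.43%. None of these 6 motifs was in the 9 windows, which says only that the letters are not within these bases. The Zic1 window had 31 CG dinucleotides and the Zic5 window 15, against a median of 7 over all windows. Hesx1 had 4, with 33.7% G and C.

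Otx2, Zic2 and Zic5 fell with retinoic acid in a fit of retinoic acid and line as additive terms, 0 rose, and 6 did not pass. By sign alone, 7 of the 9 effects were negative and 2 positive, but Otx1, Six3, Hesx1 and En2, among the 7, did not pass. A negative sign was common, since the median over all genes was negative too. The fit was made with limma over all 18310 genes. It averages the effect over the 2 lines. Each gene is left with 1 residual degree of freedom, which is the unequal response of the lines, and p-values were adjusted by the Benjamini-Hochberg method over all genes. In that fit 2.44% of all genes fell and 4.21% rose. The median effect was -0.35 over the 9 factors and -0.05 over all genes.

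**Figure D1:**
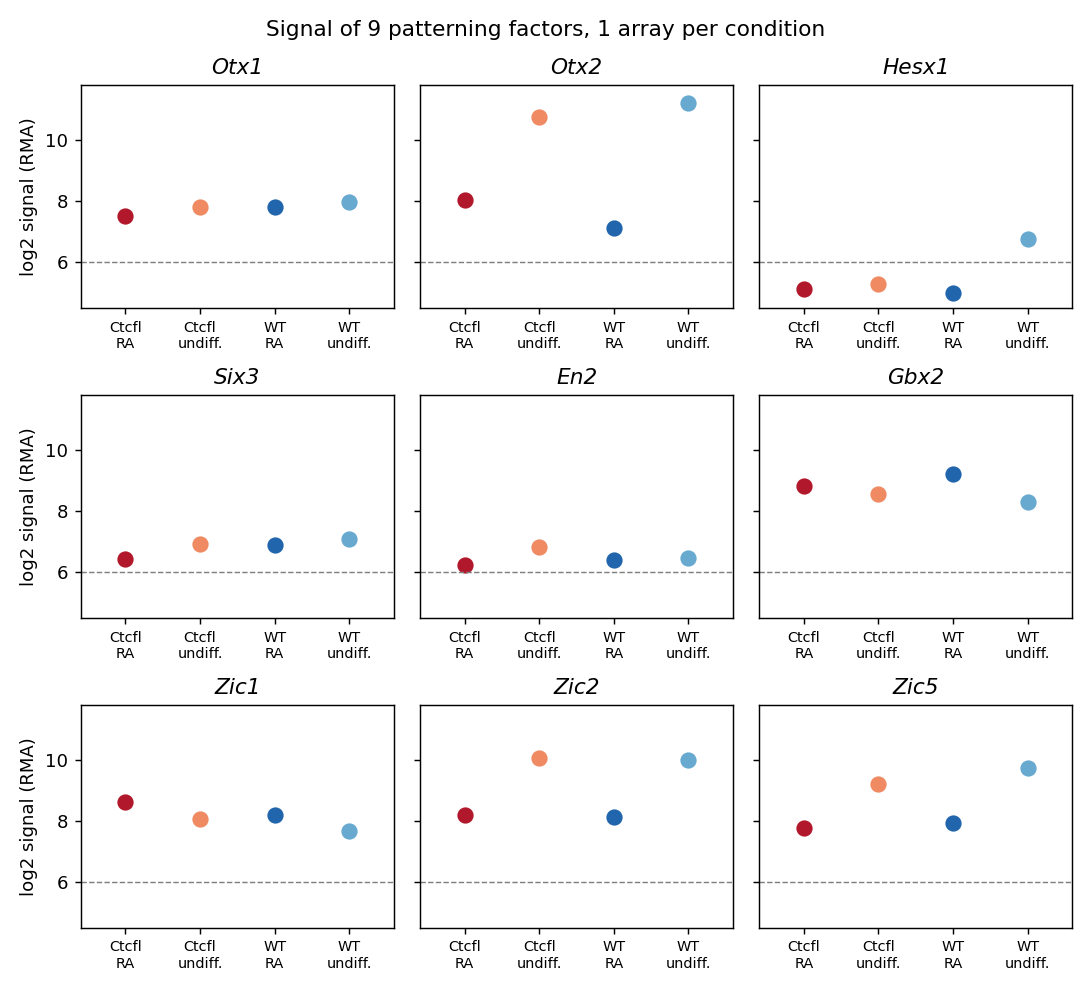
Log2 RMA signal (vertical axis) of each factor on the 4 arrays (horizontal axis; RA, retinoic acid; undiff., undifferentiated), each point 1 array, with a dashed line at log2 6. Otx2, Zic2 and Zic5 stood lower on the retinoic acid arrays of both lines, whereas Hesx1 stood above the line only in undifferentiated WT cells, at 6.76.

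Otx2, the homeobox factor of epiblast, forebrain and midbrain, had log2 signals of 8.03 in retinoic acid and 10.76 undifferentiated in the Ctcfl line, and 7.11 in retinoic acid and 11.22 undifferentiated in WT cells. Signals on both retinoic acid arrays were below those on both undifferentiated arrays. The drop was 6.62-fold in the Ctcfl line and 17.3-fold in WT cells. Averaged over the lines, Otx2 fell by 3.42 on the log2 scale (SE 0.31, 95% confidence interval -4.16 to -2.68, adjusted p = 0.00278 in limma). Its effect ranked 7 from the lowest among the 18310 genes.

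Otx1, the paralog that acts later in the same brain regions, differed little in comparison. It had 7.50 in retinoic acid and 7.81 undifferentiated in the Ctcfl line, and 7.81 and 7.97 in WT cells. The effect was -0.24 (SE 0.15, interval -0.59 to 0.12) and did not pass (adjusted p = 0.387 in limma). The retinoic acid difference of Otx2 minus that of Otx1 was -2.42 in the Ctcfl line and -3.95 in WT cells, on the log2 scale. A test of that gap was not made.

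Among the factors of the front of the neural plate, Hesx1, a paired-like homeobox repressor needed for forebrain and pituitary, was past the filter through 1 array alone. Its signals were 5.13 in retinoic acid and 5.29 undifferentiated in the Ctcfl line, and 5.003 in retinoic acid and 6.76 undifferentiated in WT cells. Undifferentiated WT cells thus stood apart from the other 3 arrays, which lay below log2 6, so folds of Hesx1 are not exact. The averaged effect was -0.96 (SE 0.35, interval -1.79 to -0.13, adjusted p = 0.163 in limma). Six3, a homeobox factor of forebrain and eye, had 6.41 in retinoic acid and 6.91 undifferentiated in the Ctcfl line, and 6.87 and 7.07 in WT cells. Six3 was lower with retinoic acid in each line but did not pass, at -0.35 (SE 0.16, interval -0.72 to 0.03, adjusted p = 0.248 in limma).

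At the midbrain-hindbrain border, Gbx2 was higher with retinoic acid in each line on the probe set used, the opposite sign to Otx2. It had 8.82 in retinoic acid and 8.54 undifferentiated in the Ctcfl line, and 9.19 and 8.29 in WT cells. The averaged effect of 0.59 did not pass (SE 0.19, interval 0.13 to 1.05, adjusted p = 0.130 in limma). The other Gbx2 probe set read 8.17 and 8.13 in the Ctcfl line and 8.22 and 8.04 in WT cells, a difference with retinoic acid of 0.04 in the Ctcfl line and 0.18 in WT cells. Gbx2 lies on the minus strand. The 20 genes with the nearest probe set numbers to this flat probe set were on the plus strand in 20 of 20 cases, whereas 19 of 20 were on the minus strand for the probe set used. Which strand the flat probe set reads is not recorded in the annotation used here, so the Gbx2 difference rests on 1 of its probe sets.

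En2, the engrailed homeobox gene of midbrain and cerebellum, had 6.24 in retinoic acid and 6.83 undifferentiated in the Ctcfl line, and 6.41 and 6.47 in WT cells. These values lie below the olfactory receptor guide of their arrays, and the effect of -0.33 did not pass (SE 0.18, interval -0.76 to 0.10, adjusted p = 0.322 in limma).

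The Zic genes, zinc finger factors of the dorsal neural tube and of neural tube closure, did not all have the same sign. Zic2 had 8.20 in retinoic acid and 10.05 undifferentiated in the Ctcfl line, and 8.12 and 9.99 in WT cells. It fell by 1.86 on the log2 scale (SE 0.15, interval -2.21 to -1.50, adjusted p = 0.00184 in limma), 3.59-fold in the Ctcfl line and 3.65-fold in WT cells. The responses of Zic2 in the 2 lines differed by log2 0.02, where the SD between probe sets of 1 gene was 0.321 for this quantity (874 genes).

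Zic5, the gene next to Zic2 on chromosome 14, had 7.77 in retinoic acid and 9.22 undifferentiated in the Ctcfl line, and 7.92 and 9.72 in WT cells. Its averaged effect was -1.62 (SE 0.16, interval -2.01 to -1.23, adjusted p = 0.00401 in limma). A second, dimmer Zic5 probe set, below log2 6 on all 4 arrays, read 4.56 and 5.06 in the Ctcfl line and 4.19 and 5.13 in WT cells. These signals are near the olfactory receptor medians of 4.68 to 4.78, so no order was read from them. Of the 20 genes with the nearest probe set numbers to this dimmer probe set, 0 lie on the chromosome of Zic5. For the probe set used, 15 of 20 lie on it. Of those 20, 12 are on the minus strand, that of Zic5, and 8 on the plus strand.

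Zic1, on chromosome 9, had the opposite sign. It had 8.62 in retinoic acid and 8.07 undifferentiated in the Ctcfl line, and 8.18 and 7.68 in WT cells. The effect of 0.52 did not pass (SE 0.15, interval 0.17 to 0.88, adjusted p = 0.0943 in limma). Zic4, the gene next to Zic1, had an effect of -0.18 (adjusted p = 0.495 in limma). Of 5 Zic genes listed, 4 had a value, and among these 2 fell, 2 did not pass and 0 rose.

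**Figure D2:**
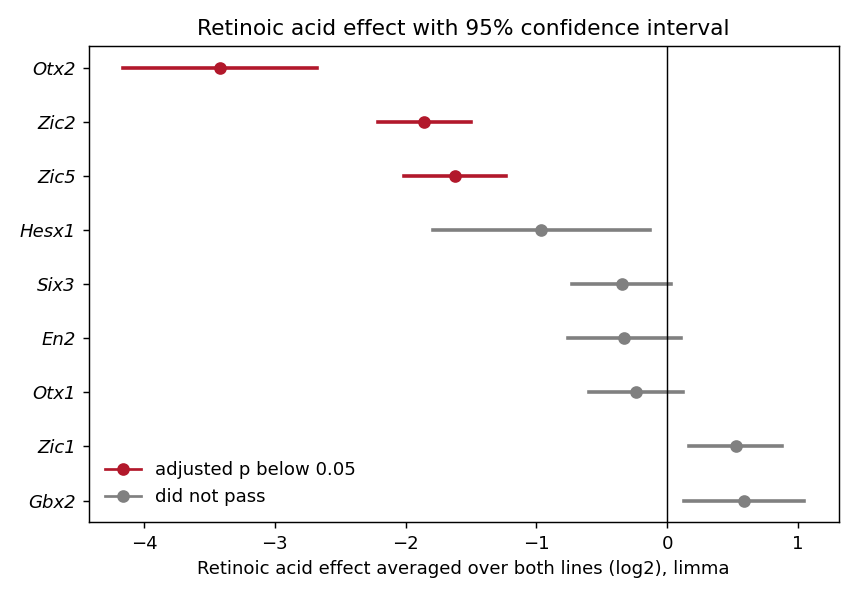
Retinoic acid effect on the log2 scale averaged over the Ctcfl line and WT cells (horizontal axis) for each factor, with limma's 95% confidence interval as a bar, from 4 arrays. Otx2 at -3.42, Zic2 at -1.86 and Zic5 at -1.62 passed an adjusted p of 0.05, and the other 6 did not.

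Neighbouring genes on the chromosome were read through the gene order of GRCm38.p6. The protein-coding neighbours within 2 places of a factor were counted if they were past the filter and not factors themselves. Among these 29, 0 rose, 2 fell and 27 did not pass, where 4.21% of all genes rose and 2.44% fell. Clybl, which encodes a mitochondrial enzyme and lies beside Zic5, fell by 1.41 on the log2 scale (SE 0.27, adjusted p = 0.0335 in limma). It had 8.66 in retinoic acid and 9.48 undifferentiated in the Ctcfl line, and 8.52 and 10.51 in WT cells. Pcca, beside Zic2 on the other side, had -0.55 (adjusted p = 0.111). The other gene that fell was Cnpy1, an FGF signalling regulator of the midbrain-hindbrain border that lies beside En2, by 1.46 on the log2 scale (SE 0.17, adjusted p = 0.00699). En2 itself did not pass.

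The wider lists of patterning genes place these factors. They were chosen with earlier results of these data known, so their counts are a description, and differences between lists were not tested. Apart from the factors above, 21 further genes of forebrain and midbrain were past the filter, of which 1 rose, 1 fell and 19 did not pass. Pax6, a regulator of forebrain, eye and spinal cord, rose by log2 1.65 (SE 0.27, adjusted p = 0.0188 in limma). Tcf7l1, a repressor of Wnt targets needed for forebrain, fell by 0.78 (SE 0.15, adjusted p = 0.0330). The median of these 21 genes was -0.08, near the -0.05 of all genes. Among the 25 forebrain and midbrain genes past the filter, Otx2 had the largest absolute effect.

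Of 17 further midbrain-hindbrain boundary genes, 2 rose, 2 fell and 13 did not pass. Irx3, an Iroquois homeobox gene, rose by log2 1.93 (SE 0.23, adjusted p = 0.00722 in limma), and Wnt1, the signal of the midbrain side of the border, rose by 1.11 (SE 0.15, adjusted p = 0.00996). Fgf15, a growth factor of midbrain and forebrain, fell by 1.81 (SE 0.15, adjusted p = 0.00192), and Cnpy1 is described above. The list therefore moved in both directions, with a median of 0.02.

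Hindbrain genes moved the other way from Otx2 and Zic2. Of 12, 9 rose, 1 fell and 2 did not pass, with a median of 2.57. Meis1, a Hox cofactor, rose by 4.81, Hoxb1 by 3.86, the retinoic acid degrading enzyme Cyp26b1 by 2.92 and Hoxa2 by 2.91, with SEs between 0.15 and 0.21 and adjusted p of at most 0.00121 in limma. The gene that fell was Egr2, a factor of rhombomeres that is named here after its value was seen (-0.998, SE 0.15, adjusted p = 0.0154).

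Signals of the anterior organiser were mixed, with 3 of 15 genes that rose, 1 that fell and 11 that did not pass. Fst, an antagonist of activin, fell by 2.56 on the log2 scale (SE 0.21, adjusted p = 0.00192 in limma). Lhx1, a homeobox factor of the head organiser, rose by 1.97 (SE 0.15, adjusted p = 0.00147), and Dkk1, a Wnt antagonist, rose by 1.30 (SE 0.16, adjusted p = 0.00843). Lefty1, an antagonist of Nodal, differed by 4.17 in the Ctcfl line and 0.70 in WT cells and did not pass (adjusted p = 0.0995).

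Of 15 epiblast genes besides Otx2, 0 rose, 7 fell and 8 did not pass, with a median of -0.87. Tdgf1, the Nodal coreceptor, fell by 4.13 on the log2 scale (SE 0.23), Utf1, a chromatin protein, by 3.41 (SE 0.18), and the kinase gene Pim2 also fell by 3.35 (SE 0.17), with adjusted p of at most 0.000571 in limma. Of 8 embryonal carcinoma markers, which include Tdgf1 and Utf1 again, 5 fell and 1 rose. Further, 3 of 10 neuron markers fell and 1 rose, 2 of 10 endoderm markers rose and 0 fell, and 2 of 9 mesoderm markers rose and 1 fell. The summed linear signal of the neuron list was 2512 in retinoic acid and 4127 undifferentiated in the Ctcfl line, and 3633 and 6111 in WT cells. For the endoderm list it was 3677 and 2200 in the Ctcfl line and 5802 and 2138 in WT cells, and for the mesoderm list 2285 and 2240, and 2784 and 1455. The embryonal carcinoma list summed to 9527 and 19312 in the Ctcfl line and to 9370 and 15585 in WT cells. No marker of the 4 lists was below log2 6 on all arrays. That alone does not show expression, since 21.9% of the olfactory receptor genes also reached log2 6 on an array. The part of cell composition in the falls of Otx2, Zic2 and Zic5 was not tested.

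**Figure D3:**
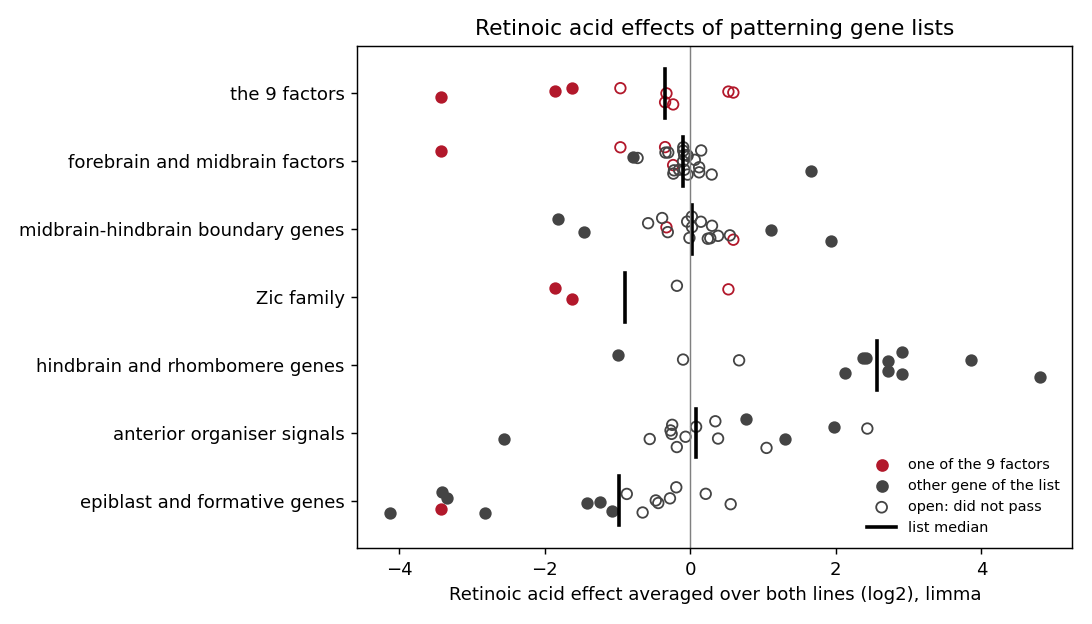
Retinoic acid effect on the log2 scale averaged over both lines (horizontal axis) for each gene of 7 lists (rows), filled where limma's adjusted p was below 0.05 and open where not, red for the 9 factors, with a black bar at the list median. The hindbrain median stood at 2.57, against -0.10 for the forebrain and midbrain list with its factors and -0.97 for the epiblast list with Otx2.

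The next question is how far the response differed between the lines. In the Ctcfl line 3 of 9 factors were at least 2-fold lower with retinoic acid, where 1.50% of all genes were that much lower, and 0 were 2-fold higher, where 3.21% were. In WT cells 4 of 9 were at least 2-fold lower, where 2.62% of all genes were, and 0 were 2-fold higher, where 2.58% were. The gene added in WT cells was Hesx1, which was past the filter only through undifferentiated WT cells, and with a filter at log2 7 the count was 3. As the difference of the 2 responses, Ctcfl line minus WT, 2 of 9 factors reached 2-fold, and both were higher, where 1.90% of all genes were that much higher and 2.65% were 2-fold apart either way. They were Otx2, at 1.39, and Hesx1, whose value of 1.60 is not exact because 3 of its 4 signals are below log2 6. Single arrays leave no error for this quantity. The SD between probe sets of 1 gene was 0.321 for it, and the SD over all 18310 genes was 0.411.

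The line difference of Otx2 changed sign between the states. In retinoic acid Otx2 was higher in the Ctcfl line, 8.03 against 7.11 in WT cells, a 1.90-fold difference. In undifferentiated cells it was lower in the Ctcfl line, 10.76 against 11.22, a 1.38-fold difference. Beside this, embryonal carcinoma markers had median line differences of 0.09 in retinoic acid and 0.38 in undifferentiated cells, and the epiblast list, which holds Otx2 itself, had 0.16 and 0.15. These medians hide a wide spread. In retinoic acid the line differences of single embryonal carcinoma markers ran from -0.98 to 1.58, the highest being that of Nanog.

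Hesx1 had its largest line difference in undifferentiated cells, with 5.29 in the Ctcfl line against 6.76 in WT cells. The difference of -1.47 is not exact, since 5.29 is below log2 6, and both signals are below the olfactory receptor guide of their arrays. In this comparison 1.09% of all genes were at least 2-fold lower, and Hesx1 was past the filter only through its WT signal. In retinoic acid the signals were 5.13 and 5.003, at a level where no order can be read.

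**Figure D4:**
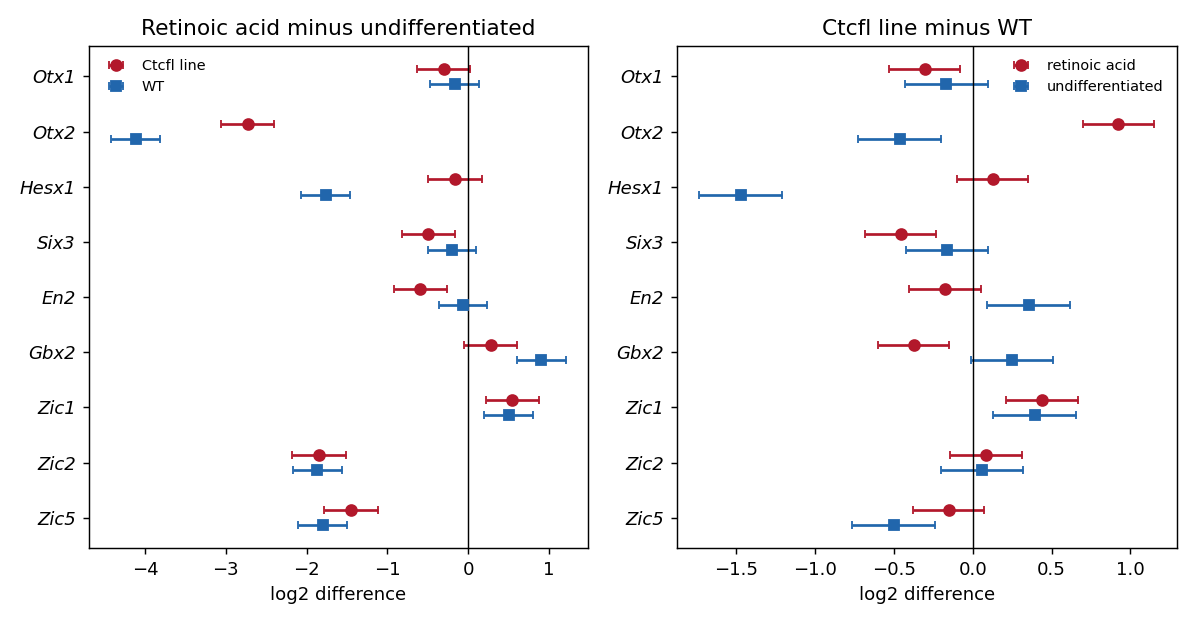
Log2 differences (horizontal axis) for each factor: on the left retinoic acid minus undifferentiated in the Ctcfl line (circles) and WT cells (squares), on the right Ctcfl line minus WT in retinoic acid (circles) and undifferentiated cells (squares). Each point compares 2 arrays. Bars are the SD between probe sets of the same gene, taken over 874 genes (0.226 to 0.331 by comparison). Within a comparison the bar is the same for every factor, so it is not the spread of the plotted gene. Probe sets were read on the same arrays, so the bars hold no variation between replicate arrays or cultures. The gap between circle and square is the same quantity in both panels by construction. It is largest for Otx2 and Hesx1, and that of Hesx1 is not exact.

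Averaged over the states, 0 of 9 factors changed with the line in limma, where 0.0437% of all genes did. With a mean-variance trend in the prior, 0 of 9 passed at an adjusted p of 0.05 as well. At an unadjusted p of 0.05 in the main limma fit there was 1 of 9, and 9.81% of all genes. The 1 was Zic1, higher in the Ctcfl line by 0.44 in retinoic acid and 0.39 in undifferentiated cells (averaged 0.42, SE 0.15, interval 0.06 to 0.77, adjusted p = 0.452). Zic2 had line differences of 0.08 and 0.06 in the same states. Its averaged interval, -0.28 to 0.42, does not reach 2-fold in either direction. For Otx2, whose line difference changed sign between the states, the interval was wide, from -0.51 to 0.97 (adjusted p = 0.850). Across the 9 factors the line difference was at least 2-fold in 0 in retinoic acid, where 1.23% of all genes were, and in 1, Hesx1, in undifferentiated cells, where 1.82% were.

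Genes whose profile over the 4 arrays lay nearest to that of a factor were listed for the 4 factors with a range of at least log2 1. Nearness was the Euclidean distance between log2 profiles after each gene's mean was taken off, over 4 arrays, and the genes were picked for it, so no test applies. For Otx2 the nearest were Utf1 (0.43), Pim2 (0.52) and the cytochrome P450 gene Cyp2b23 (0.60). Utf1 had 8.56 and 11.71 in the Ctcfl line and 8.07 and 11.74 in WT cells, in retinoic acid and undifferentiated. Zic2 was nearest to Fam131b (0.23), to Atp1b2, a subunit gene of the sodium pump (0.24), and to Fgf15 (0.26), while Zic5 was nearest to Lurap1l (0.12), Snhg14, a noncoding host transcript (0.13), and the Polycomb gene Phc1 (0.14). For Hesx1 they were Slc1a4, a neutral amino acid transporter (0.18), Pck2, the mitochondrial PEP carboxykinase (0.20), and the deubiquitinase gene Otub2 (0.21). Hesx1 itself was below the olfactory receptor guide on all 4 arrays, and only its undifferentiated WT signal, 6.76, was past the filter. Its profile is therefore not exact, and no shared expression with these brighter genes was read from the nearness. Slc1a4 had 10.49 in retinoic acid and 10.71 undifferentiated in the Ctcfl line, and 10.18 and 12.12 in WT cells.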

How the data were processed

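RNA of P19 cells was hybridised to 4 Affymetrix arrays. The deposited values are log2 signals per probe set from RMA, run by the authors in Expression Console, per the labels. Transcriptome Analysis Console is a further tool in the submitters' processing notes. RMA corrects background, normalizes between arrays and summarises probes, which compresses differences of dim genes. Versions and the genome build are not given in the sources used here. Groups came from sample titles.

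Of 41345 probe sets, 23521 had 1 gene symbol, 1814 several and 16010 none in the annotation. Each gene was read from the probe set of highest mean among those naming it alone, and genes below log2 6 on all 4 arrays were left out. Differences were taken between arrays, and averaged effects fitted with limma 3.58.1 in R 4.3.3 (lmFit and eBayes, retinoic acid and line additive, prior of 5.49 degrees of freedom), two-sided, adjusted by Benjamini-Hochberg with a threshold of 0.05. The fit was tested on simulated data. The number of arrays limits precision. The p-values rest on the unequal response of the lines and on a variance prior taken over all genes. They measure no spread between replicates, since there were none. The 9 genes and all lists were chosen with earlier results of these data known. Besides the 9 factors and Ctcfl, the genes named were up to 4 per list with the largest absolute retinoic acid effect, chromosome neighbours, and the 3 nearest profiles per factor.

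The alternatives tried were quantile normalization, the filter at log2 7 or none, averaging the probe sets of a gene, a limma prior with a mean-variance trend, and limits at 2-fold and 3-fold.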

Additional observations from a re-analysis of the deposited data

Results flagged for a closer look

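4 of the 9 factors had a line difference, Ctcfl line minus WT, of opposite sign in the 2 states, each from 1 array per condition. Over all 18310 genes 42.7% had opposite signs. The difference between the states was not tested. Otx2 differed by 0.92 in retinoic acid and by -0.46 in undifferentiated cells. Hesx1 differed by 0.13 and -1.47, Gbx2 by -0.37 and 0.25, and En2 by -0.18 and 0.35 in the same order. The SD between probe sets of 1 gene in these differences was 0.226 in retinoic acid and 0.262 in undifferentiated cells. The Hesx1 value of 0.13 and the En2 value of -0.18 are within that SD, as is the Gbx2 value of 0.25. Signals of Hesx1 and En2 are below the olfactory receptor guide on all 4 arrays.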

How the results depend on the processing

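The falls of Otx2, Zic2 and Zic5 with retinoic acid passed limma under the 5 alternative fits (quantile normalization, the filter at log2 7 or none, the mean of probe sets and a limma prior with a mean-variance trend) and with a 2-fold limit, and the 6 other factors did not pass in any of them, Hesx1 and En2 being untested at log2 7. Over all genes the retinoic acid calls were 1217, and 672 with the 2-fold limit, since that limit removes small effects. The line calls were 8, and 23 with quantile normalization and 15 with the trended prior, and in each 0 of the 9 factors were among them; the cause was not tested. A 3-fold threshold leaves fewer genes by construction: 285 in place of 862 for retinoic acid in the Ctcfl line, 338 in place of 952 in WT cells, 48 in place of 225 and 49 in place of 333 for the line in retinoic acid and in undifferentiated cells, and 96 in place of 486 for the difference of responses. Among the factors it leaves 2 in place of 3 for retinoic acid in the Ctcfl line, as the mean of probe sets also does, 0 in place of 1 for the line in undifferentiated cells and 1 in place of 2, Hesx1, for the difference of responses. The filter at log2 7 takes Hesx1 and En2 out of the tested genes, and so gives 3 in place of 4 for retinoic acid in WT cells, and 0 and 1 for the last 2 counts. Of 256 values of single factors under alternatives, 252 kept their sign. Most of these could not change, since the filters and the trended prior leave a factor's value as it is. Averaging probe sets changes only Zic5 and Gbx2, so only quantile normalization moved the values of all factors. The 4 that changed sign were small: line differences in retinoic acid of Zic2 (-0.02 with quantile normalization) and Zic5 (0.11 with the mean of probe sets), and the difference of responses of Zic1 (-0.08) and Zic2 (-0.05) with quantile normalization. With the mean of probe sets the retinoic acid difference of Zic5 was -0.97 in the Ctcfl line and -1.37 in WT cells, and that of Gbx2 0.54 in WT cells. The additive fit already sets the arrays of each line against each other, so no further block could be added, and leaving out an array leaves no residual degrees of freedom. Hesx1, En2 and Six3 are limited by signals near background.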
